A study of Homo sapiens with 6 samples.

Results

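The interferon-stimulated genes are a set of 42 human genes that cells transcribe after interferon signalling, and they were chosen by name from a written list. All 42 were found among the 58381 gene identifiers of the count table, and 37 of them had enough reads to be tested, out of 17219 genes tested in all. The RNA came from MOLM-13, an established human acute myeloid leukaemia line. One group received 5 µM DB2115, a compound known here by its code name, and the other received vehicle, 0.001% DMSO. Both treatments lasted 20 h, in RPMI medium with 10% serum and 1% antibiotics. The study's title names PU.1, a transcription factor of the ETS family whose gene is SPI1. The labels list 3 samples per group, but the extra column V of each group in the table was close to the sum of columns A and B, so n = 2 libraries per group, A and B, throughout. Whether A and B were separate cultures is not in the labels, and the p-values therefore cover the spread between libraries alone, which may be technical.

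Type I interferons bind the receptor pair IFNAR1 and IFNAR2, whose kinases JAK1 and TYK2 phosphorylate STAT proteins, STAT2 among them. STAT2 and IRF9 are parts of ISGF3, a complex that binds the interferon-stimulated response element, or ISRE, in the promoters of induced genes. The products sense foreign RNA, degrade or block viral RNA, hinder viral entry at membranes, and conjugate the ubiquitin-like protein ISG15 to other proteins. In myeloid cells PU.1 can bind together with interferon regulatory factors such as IRF8 at ETS-IRF composite sites, whose letters resemble an ISRE.

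After DB2115, 25 of the 37 tested interferon-stimulated genes rose, 4 fell and 8 did not pass the test, where a gene was called when edgeR's quasi-likelihood test gave a Benjamini-Hochberg adjusted p under 0.05 over all tested genes. Much of the transcriptome moved in this comparison: 67.6% of the tested interferon-stimulated genes were called higher and 10.8% lower, against 32.7% and 31.3% of all tested genes. The median log2 fold change was 1.27 over the 37 genes and 0.03 over all tested genes. The rise reached 2-fold in 20 of the 37, against 17.5% of all genes, and 4-fold in 11, against 9.36%. OASL, IFIT1 and IFIT2, which are in both counts, passed the filter on low counts only through the DB2115 libraries. These counts were not redone without them. SAMD9L was the 1 gene that fell by more than 2-fold, against 9.53% of all genes. The largest rises were in LGALS3BP, the IFITM, IFIT and OAS families, while USP18, TRIM22, DDX60 and SAMD9L fell. These are relative levels in bulk RNA, in which a change in the share of expressing cells and a change in RNA per cell cannot be told apart.

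Summed over the 42 genes, the level was 1002.2 and 929.9 CPM (counts per 1e6 reads, after TMM scaling) in the DB2115 libraries, against 546.9 and 542.7 CPM in the vehicle libraries. The 2 groups did not overlap. Without IFITM1, IFITM2 and IFITM3 the sum was 770.3 and 760.7 CPM in DB2115 libraries, against 474.5 and 481.5 CPM in vehicle libraries. By gene, the DB2115 and vehicle libraries did not overlap in 33 of the 37 tested genes, or 89.2%, beside 81.3% of all tested genes. The higher library exceeded the lower by a median of 1.12-fold within DB2115 and 1.09-fold within vehicle.

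Among the genes that rose, OASL, IFIT1 and IFIT2 passed the filter on low counts only through the DB2115 libraries. The filter thus favoured a rise in them, and their calls are not independent of it. Among the other 34, 22 rose and 4 fell, which is 64.7% called higher with a median log2 fold change of 1.01. Of all 15077 genes that passed the filter in the vehicle libraries, 28.96% were called higher and 35.8% lower, with a median of -0.08. The background also differed by level. Among the 16 tested interferon-stimulated genes with a mean level under 10 CPM, 12 rose and 2 fell. Of all genes at that level 34.1% were called higher and 14.98% lower. OASL, IFIT1 and IFIT2 are still counted among these 12, and the shares of all genes were likewise not limited to genes that passed in vehicle. Among the 15 at 10 to 50 CPM, 8 rose and 2 fell, with a median log2 fold change of 0.35, where 31.3% of all genes were called higher and 43.2% lower. Among the 6 over 50 CPM, 5 rose and none fell, where 31.9% of all genes were called higher and 47.4% lower.

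**Figure D1:**
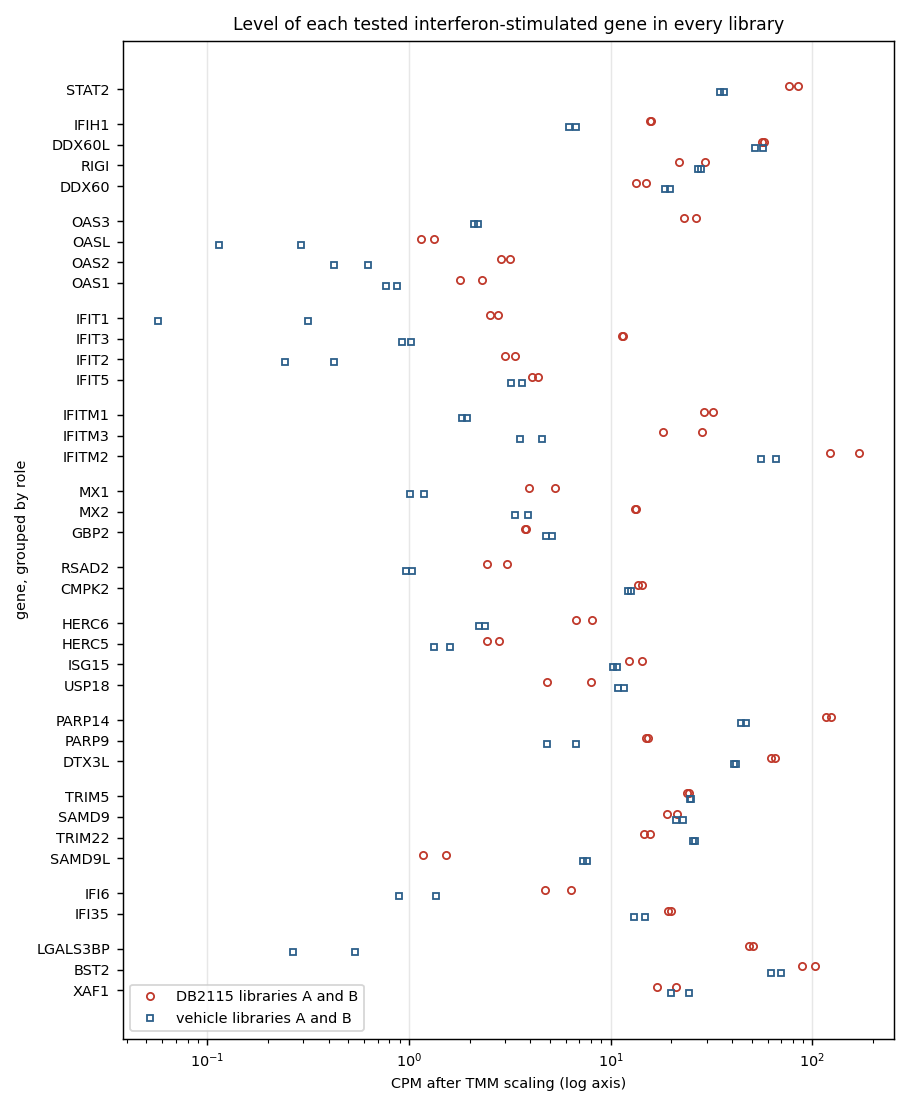
Level of each of the 37 tested interferon-stimulated genes in CPM after TMM scaling (log axis), with red circles for the 2 DB2115 libraries and blue squares for the 2 vehicle libraries, grouped by role. The circles lie right of the squares for LGALS3BP and the OAS, IFIT and IFITM genes, left of them for SAMD9L, and among them for RIGI, DDX60L, SAMD9 and XAF1.

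**Figure D2:**
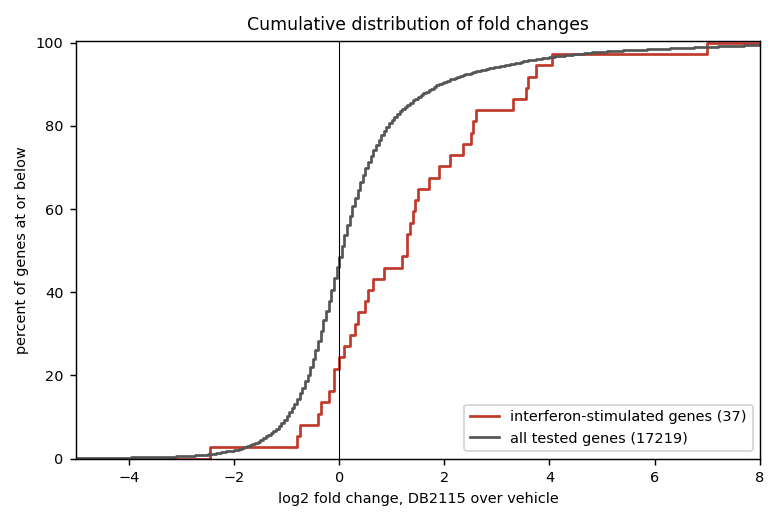
Cumulative percent of genes (y axis) at or below each log2 fold change, DB2115 over vehicle (x axis), for the 37 tested interferon-stimulated genes in red and all 17219 tested genes in grey. The red line crosses 50% near its median of 1.27 and the grey line near 0.03.

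Promoter sequences were read from RefSeq (build GRCh38.p14), which gave windows from 250 bases before to 50 bases after the transcription start for 34 of the 42 genes. Each was searched on both strands for the ISRE core, written GAAA, any 2 bases, then GAAA. The core stood in a window of 26 of the 34 genes, or 76.5%, against 4.38% of the 27305 genes with a window. Among genes with a window it was found in 16 of the 20 that rose. It was also found in 1 of the 2 that fell, DDX60, and in 4 of the 7 that were not called. The 8 genes without a window were OAS2, OASL, IFIT2, IFITM2 and MX2, which rose, USP18 and TRIM22, which fell, and GBP2. The split by call therefore lacks them, here and for the other motifs below. The upstream 250 bases are shown for 4 of the genes with the largest rises, for ISG15, and for the neighbours SAMD9 and SAMD9L, of which SAMD9L fell and SAMD9 was not called. Each sequence runs 5′ to 3′ on the gene's own strand and ends at the base before the start, with ISRE core matches in capitals (TTTC at the left end marks a match on the other strand). The IFITM1 match at -6 runs past the start, so only its first 6 letters are shown.
LGALS3BP (chr17:78979924-78980173, minus strand): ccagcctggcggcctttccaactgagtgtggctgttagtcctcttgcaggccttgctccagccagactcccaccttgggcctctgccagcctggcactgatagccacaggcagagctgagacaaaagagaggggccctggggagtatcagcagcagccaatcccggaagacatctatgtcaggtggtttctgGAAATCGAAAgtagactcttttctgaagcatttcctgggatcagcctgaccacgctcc
IFITM1 (chr11:313790-314039, plus strand): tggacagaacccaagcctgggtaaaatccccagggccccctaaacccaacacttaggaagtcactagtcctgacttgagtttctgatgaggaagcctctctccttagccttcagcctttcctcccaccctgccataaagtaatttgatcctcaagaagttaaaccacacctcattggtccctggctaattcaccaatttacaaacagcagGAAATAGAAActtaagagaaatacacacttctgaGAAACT
IFIT1 (chr10:89392373-89392622, plus strand): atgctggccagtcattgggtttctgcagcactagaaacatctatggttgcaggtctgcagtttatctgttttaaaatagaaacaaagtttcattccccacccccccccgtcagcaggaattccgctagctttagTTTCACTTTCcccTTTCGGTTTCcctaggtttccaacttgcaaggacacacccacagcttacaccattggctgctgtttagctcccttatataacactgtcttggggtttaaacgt
OAS3 (chr12:112938224-112938473, plus strand): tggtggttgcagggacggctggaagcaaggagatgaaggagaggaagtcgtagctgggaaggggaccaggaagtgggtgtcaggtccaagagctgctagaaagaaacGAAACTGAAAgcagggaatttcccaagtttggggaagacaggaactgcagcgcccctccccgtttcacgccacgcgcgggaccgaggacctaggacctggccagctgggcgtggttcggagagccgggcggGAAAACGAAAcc
ISG15 (chr1:1013247-1013496, plus strand): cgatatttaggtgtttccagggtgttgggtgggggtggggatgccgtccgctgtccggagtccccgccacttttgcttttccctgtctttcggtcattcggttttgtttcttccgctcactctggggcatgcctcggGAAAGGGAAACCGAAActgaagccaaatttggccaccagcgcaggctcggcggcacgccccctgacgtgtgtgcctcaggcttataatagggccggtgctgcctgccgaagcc
SAMD9 (chr7:93117980-93118229, minus strand): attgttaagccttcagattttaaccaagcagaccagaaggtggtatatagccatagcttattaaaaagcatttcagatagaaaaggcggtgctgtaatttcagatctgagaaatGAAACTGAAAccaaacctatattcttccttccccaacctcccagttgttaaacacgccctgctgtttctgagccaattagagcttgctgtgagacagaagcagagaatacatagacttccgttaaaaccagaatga
SAMD9L (chr7:93148386-93148635, minus strand): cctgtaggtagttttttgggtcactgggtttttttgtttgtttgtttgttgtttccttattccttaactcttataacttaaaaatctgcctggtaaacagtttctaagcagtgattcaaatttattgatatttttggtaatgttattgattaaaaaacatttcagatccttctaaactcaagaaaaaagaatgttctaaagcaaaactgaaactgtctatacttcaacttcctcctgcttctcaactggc

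LGALS3BP had 1 match, starting at position -58 from the transcription start. IFITM1 had matches at -40 and -6, IFIT1 at -116 and -103, and OAS3 at -143 and -12. In ISG15 the matches at -113 and -107 share a GAAA. SAMD9 had a match at -136, and the SAMD9L window held no match to these letters. A match describes letters in a window and does not show that a factor bound there.

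**Figure D3:**
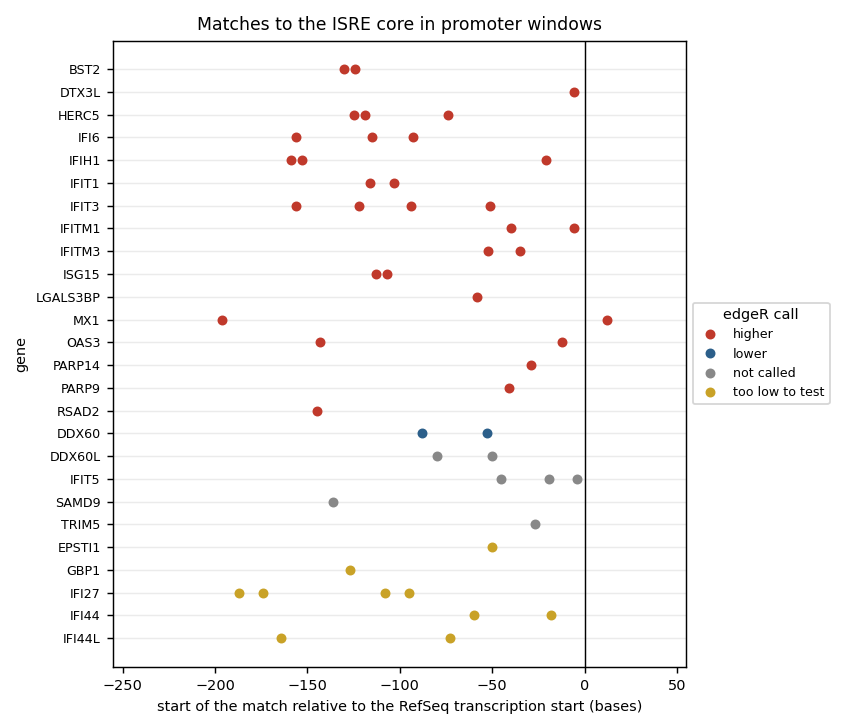
Start of each ISRE core match relative to the RefSeq transcription start, in bases, for the 26 interferon-stimulated genes with a match, coloured by the edgeR call. Genes that rose had matches from -196 (MX1) to 12 (MX1), and among genes that were not called SAMD9 had its match at -136.

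The ETS-IRF composite, written GGAA, any 2 bases, then GAAA, stood in the windows of 11 of the 34 genes, or 32.4%, against 3.47% of all genes with a window. It was found in 8 of the 20 genes that rose, in neither of the 2 that fell and in 2 of the 7 that were not called. Windows of neighbouring genes can hold the same site, as those of RSAD2 and CMPK2 and of PARP9 and DTX3L did, and the matches fell on 13 distinct sites, 4 of which overlapped an ISRE core match. The most in any window were the 4 of RSAD2, which encodes viperin, at its upstream start next to CMPK2. That window is shown up to the start, with the composite in capitals.
RSAD2 (chr2:6865635-6865884, plus strand): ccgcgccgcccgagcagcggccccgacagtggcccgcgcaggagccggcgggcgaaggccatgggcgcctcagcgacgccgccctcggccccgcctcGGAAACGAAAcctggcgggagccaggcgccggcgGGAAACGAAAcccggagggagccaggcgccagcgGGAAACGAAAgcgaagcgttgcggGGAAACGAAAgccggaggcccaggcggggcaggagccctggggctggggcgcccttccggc

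The PU.1 site core GAGGAAGT stood in the windows of 2 of the 34 genes, OAS3 and SAMD9L, or 5.88%, against 3.15% of all genes with a window. OAS3 rose and SAMD9L fell. In the sequences above it is in lower case.

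STAT2, the ISGF3 subunit that carries its activation domain, rose. It had 76.3 and 85.4 CPM in DB2115 libraries, against 34.8 and 36.6 CPM in vehicle libraries, and the groups did not overlap. Its mean was 80.9 ± 6.44 CPM after DB2115 and 35.7 ± 1.29 CPM in vehicle (SD, n = 2 each), a log2 fold change of 1.18 (SE 0.07; edgeR adjusted p = 2.11e-08). The gene lies on the minus strand at chr12:56341597-56360155 (GRCh38, GENCODE 29).

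The RNA sensors and helicases did not move as one. IFIH1, which encodes the long double-stranded RNA sensor MDA5, rose to 15.8 ± 0.0243 CPM in DB2115 libraries, against 6.47 ± 0.372 CPM in vehicle libraries (SD, n = 2 each), a log2 fold change of 1.28. RIGI, the sensor of RNA with 5′ triphosphate ends, had 29.4 and 21.8 CPM in DB2115 libraries, against 27.2 and 28.1 CPM in vehicle libraries. One DB2115 library lay above both vehicle libraries and the other below, and the log2 fold change was -0.11 (SE 0.12; edgeR adjusted p = 0.44). Without DB2115 replicate A it was -0.36 (edgeR adjusted p = 0.00105), and without DB2115 replicate B 0.08 (0.49). In such fits the group with 1 library is assumed to vary like the other group.

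DDX60, a helicase reported to assist RIG-I-like sensors, fell. It had 13.4 and 14.96 CPM in DB2115 libraries, against 18.6 and 19.8 CPM in vehicle libraries, without overlap. The means were 14.2 ± 1.12 CPM after DB2115 and 19.2 ± 0.881 CPM in vehicle (SD, n = 2 each), a log2 fold change of -0.44 (SE 0.10; edgeR adjusted p = 0.00149). Its neighbour and paralogue DDX60L averaged 57.1 ± 1.09 CPM after DB2115 and 54.6 ± 3.33 CPM in vehicle (SD, n = 2 each), with a log2 fold change of 0.06 and overlapping libraries.

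All 4 OAS genes rose, beside 32.7% of all tested genes called higher. OAS1, OAS2 and OAS3 encode synthases of 2′-5′-linked oligoadenylate, which activates the RNA-degrading enzyme RNase L, and OASL is an inactive relative. OAS3 had 23.2 and 26.6 CPM in DB2115 libraries, against 2.19 and 2.11 CPM in vehicle libraries, so the groups were far apart. Its mean was 24.9 ± 2.37 CPM after DB2115 and 2.15 ± 0.0603 CPM in vehicle (SD, n = 2 each), a log2 fold change of 3.53 (SE 0.13; edgeR adjusted p = 1.4e-10).

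The other OAS genes had smaller fold changes than OAS3, a difference that was not tested. OAS2 averaged 3.02 ± 0.233 CPM after DB2115 and 0.528 ± 0.143 CPM in vehicle, a log2 fold change of 2.50. OAS1 averaged 2.05 ± 0.378 CPM after DB2115 and 0.820 ± 0.0729 CPM in vehicle, with 1.32. OASL averaged 1.24 ± 0.127 CPM after DB2115 and 0.202 ± 0.1249 CPM in vehicle, with 2.56, which was 3.39 when vehicle replicate B was left out (all SD, n = 2 each). OASL passed the filter on low counts only through the DB2115 libraries, so the filter favoured a rise in it. OAS1, OAS3 and OAS2 lie side by side on the plus strand of chromosome 12, from chr12:112906777-112933222 through chr12:112978395-113011723 (GRCh38, GENCODE 29).

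The IFIT proteins bind viral RNA through its 5′ end or act in complexes that do. Of their 4 genes 3 rose, beside 32.7% of all tested genes called higher. Of these 3, only IFIT3 passed the filter on low counts in the vehicle libraries. IFIT1 had 2.52 and 2.75 CPM in DB2115 libraries (217 counts in all), against 0.0569 and 0.315 CPM in vehicle libraries (15 counts in all). The vehicle libraries differed from each other by more than the DB2115 ones did. The means were 2.63 ± 0.167 CPM after DB2115 and 0.186 ± 0.182 CPM in vehicle (SD, n = 2 each), a log2 fold change of 3.74 (SE 0.46; edgeR adjusted p = 1.08e-05). It was 3.04 without vehicle replicate A and 5.43 without vehicle replicate B. IFIT1 passed the filter on low counts only through the DB2115 libraries, so the filter favoured a rise in it.

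IFIT3 had 11.4 and 11.5 CPM in DB2115 libraries, against 1.02 and 0.920 CPM in vehicle libraries, with little spread in either group. The means were 11.5 ± 0.0769 CPM after DB2115 and 0.972 ± 0.0740 CPM in vehicle (SD, n = 2 each), a log2 fold change of 3.56 (SE 0.17; edgeR adjusted p = 1.48e-09). IFIT2 had 3.003 and 3.355 CPM in DB2115 libraries, against 0.427 and 0.242 CPM in vehicle libraries. The groups did not overlap, with means of 3.18 ± 0.248 CPM after DB2115 and 0.334 ± 0.131 CPM in vehicle (SD, n = 2 each) and a log2 fold change of 3.26 (SE 0.33; edgeR adjusted p = 2.03e-06). IFIT2, like IFIT1, passed the filter on low counts only through the DB2115 libraries, so the filter favoured a rise in it.

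IFIT5, the last gene of the same row on chromosome 10, was not called. It averaged 4.20 ± 0.206 CPM after DB2115 and 3.43 ± 0.299 CPM in vehicle (SD, n = 2 each), a log2 fold change of 0.29 (SE 0.18; edgeR adjusted p = 0.172). Its DB2115 libraries lay above its vehicle libraries, but by little. The row runs from IFIT2 at chr10:89283694-89309276 through IFIT3 and IFIT1 to IFIT5 at chr10:89414586-89421001, all on the plus strand (GRCh38, GENCODE 29).

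All 3 IFITM genes, whose membrane proteins hinder the entry of enveloped viruses, rose, beside 32.7% of all tested genes called higher. IFITM1 had 32.3 and 29.1 CPM in DB2115 libraries, against 1.93 and 1.84 CPM in vehicle libraries. The groups were well separated, with means of 30.7 ± 2.30 CPM after DB2115 and 1.89 ± 0.0675 CPM in vehicle (SD, n = 2 each), a log2 fold change of 4.02 (SE 0.12; edgeR adjusted p = 3.23e-11). IFITM3 had 28.5 and 18.2 CPM in DB2115 libraries, against 4.58 and 3.56 CPM in vehicle libraries. The DB2115 libraries of IFITM3 differed by more than those of IFITM1, and the means of 23.4 ± 7.33 CPM after DB2115 and 4.07 ± 0.723 CPM in vehicle (SD, n = 2 each) gave a log2 fold change of 2.53 (SE 0.20).

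IFITM2 had the highest level of the 3 per kilobase of exon, 94.9 CPM per kilobase after DB2115 and 39.4 in vehicle. It had 171 and 122 CPM in DB2115 libraries, against 65.8 and 55.8 CPM in vehicle libraries, without overlap. The means were 146.5 ± 34.8 CPM after DB2115 and 60.8 ± 7.11 CPM in vehicle (SD, n = 2 each), a log2 fold change of 1.27 (SE 0.13). The 3 genes are close copies within chr11:307631-327537, and IFITM1 shares 32.5% of its annotated exon bases with IFITM2 on the same strand, so reads may be split between them and each value is uncertain. The pooled column held 2308 reads for IFITM3 and 12495 for IFITM2 after DB2115, against 1922 and 12058 in the sums of libraries A and B, a gap of 20.1% for IFITM3.

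**Figure D4:**
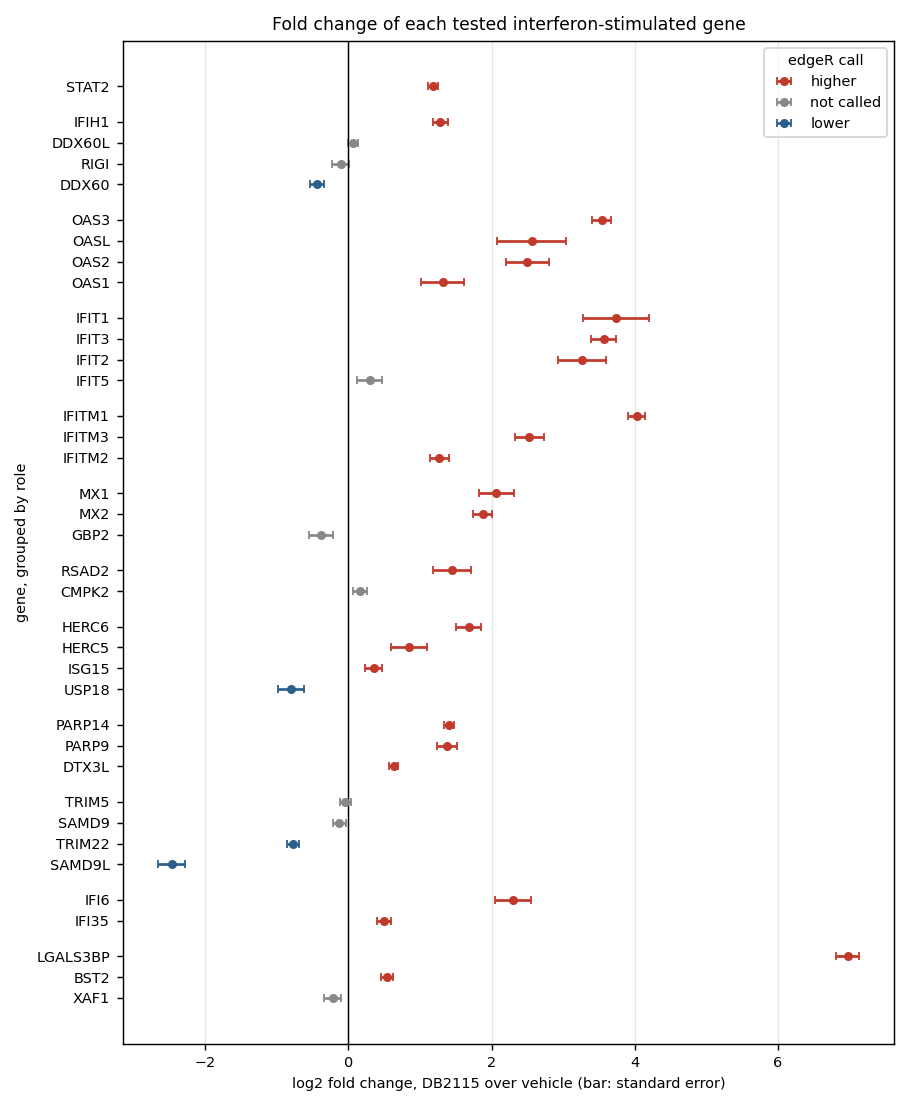
Log2 fold change of each of the 37 tested interferon-stimulated genes, DB2115 over vehicle, with the standard error as a bar, grouped by role and coloured by the edgeR call. Of the 37, 25 are called higher, up to LGALS3BP at 6.97, and 4 lower, down to SAMD9L at -2.47.

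The dynamin-like GTPases MX1 and MX2, which block incoming viral particles or their nucleocapsids, both rose. MX1 averaged 4.61 ± 0.958 CPM after DB2115 and 1.11 ± 0.126 CPM in vehicle, a log2 fold change of 2.06. MX2 averaged 13.3 ± 0.182 CPM after DB2115 and 3.63 ± 0.378 CPM in vehicle, a log2 fold change of 1.88 (all SD, n = 2 each). GBP2, a guanylate-binding protein induced mainly by interferon gamma, was not called: it averaged 3.80 ± 0.0201 CPM after DB2115 and 4.96 ± 0.211 CPM in vehicle, with a log2 fold change of -0.38 (SE 0.16; edgeR adjusted p = 0.0567).

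RSAD2 encodes viperin, which makes a chain-terminating nucleotide, and CMPK2 is the neighbouring nucleotide kinase gene on the opposite strand. RSAD2 rose to 2.75 ± 0.441 CPM after DB2115, against 1.00 ± 0.0518 CPM in vehicle (SD, n = 2 each), a log2 fold change of 1.45. CMPK2 averaged 13.9 ± 0.441 CPM after DB2115 and 12.4 ± 0.233 CPM in vehicle (SD, n = 2 each), a log2 fold change of 0.17 that was not called (edgeR adjusted p = 0.156).

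The ISG15 system attaches ISG15 to proteins through ligases of the HERC family and removes it through the protease USP18, which also restrains signalling at IFNAR2. ISG15 had 14.4 and 12.3 CPM in DB2115 libraries, against 10.7 and 10.2 CPM in vehicle libraries. The groups did not overlap, with means of 13.3 ± 1.47 CPM after DB2115 and 10.5 ± 0.346 CPM in vehicle (SD, n = 2 each), and ISG15 rose by 0.35 on the log2 scale (SE 0.11; edgeR adjusted p = 0.0153). The direction held but the call was lost without DB2115 replicate A (log2 fold change 0.22, edgeR adjusted p = 0.147), without vehicle replicate B (0.29, adjusted p = 0.159) and with DESeq2 (0.34, adjusted p = 0.104).

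HERC6 rose to 7.42 ± 0.937 CPM after DB2115, against 2.31 ± 0.1249 CPM in vehicle, a log2 fold change of 1.68. HERC5, the main human ligase, averaged 2.62 ± 0.253 CPM after DB2115 and 1.46 ± 0.185 CPM in vehicle (SD, n = 2 each), a log2 fold change of 0.85 (SE 0.25; edgeR adjusted p = 0.00953). The HERC5 call was lost without DB2115 replicate B (log2 fold change 0.73, edgeR adjusted p = 0.0619), without vehicle replicate B (0.70, adjusted p = 0.0823) and with DESeq2 (0.83, adjusted p = 0.0681).

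USP18 moved the other way. It had 4.86 and 7.96 CPM in DB2115 libraries, against 11.6 and 10.9 CPM in vehicle libraries, and both DB2115 libraries lay below both vehicle libraries though far from each other. The means were 6.41 ± 2.20 CPM after DB2115 and 11.2 ± 0.508 CPM in vehicle (SD, n = 2 each), a log2 fold change of -0.81 (SE 0.18; edgeR adjusted p = 0.00165). Without vehicle replicate B the USP18 log2 fold change was -0.88 and the call was lost (edgeR adjusted p = 0.0755), with the lone vehicle library assumed to vary like the DB2115 libraries.

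PARP9, DTX3L and PARP14 all rose. PARP9 and DTX3L act as a pair of ADP-ribosyltransferase and ubiquitin ligase, and PARP14 is another ADP-ribosyltransferase. PARP14 had 117 and 124 CPM in DB2115 libraries, against 44.3 and 46.9 CPM in vehicle libraries, without overlap. Its means were 120.7 ± 4.65 CPM after DB2115 and 45.6 ± 1.87 CPM in vehicle, a log2 fold change of 1.40. PARP9 averaged 15.1 ± 0.184 CPM after DB2115 and 5.81 ± 1.37 CPM in vehicle, a log2 fold change of 1.37. DTX3L averaged 64.1 ± 2.11 CPM after DB2115 and 41.4 ± 0.804 CPM in vehicle (SD, n = 2 each), a log2 fold change of 0.63. PARP9 and DTX3L share a few exon bases on opposite strands, and the sources used here do not state whether reads were counted by strand.

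None of the 4 SAMD9 and TRIM genes rose, beside 32.7% of all tested genes called higher. SAMD9 and SAMD9L restrict poxviruses and curb growth in blood cells, and SAMD9L had 1.17 and 1.52 CPM in DB2115 libraries, against 7.65 and 7.33 CPM in vehicle libraries. The groups lay far apart, with means of 1.35 ± 0.246 CPM after DB2115 and 7.49 ± 0.227 CPM in vehicle (SD, n = 2 each) and a log2 fold change of -2.47 (SE 0.19; edgeR adjusted p = 1.49e-07), or 5.55-fold lower. Its neighbour SAMD9 averaged 20.1 ± 1.62 CPM after DB2115 and 22.0 ± 1.17 CPM in vehicle (SD, n = 2 each), a log2 fold change of -0.13 with overlapping libraries (edgeR adjusted p = 0.236). SAMD9 lies at chr7:93099513-93118023 and SAMD9L at chr7:93130055-93148369, both on the minus strand (GRCh38, GENCODE 29).

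TRIM22, a restriction factor of the tripartite-motif family, fell. It had 15.7 and 14.6 CPM in DB2115 libraries, against 26.3 and 25.5 CPM in vehicle libraries, without overlap. The means were 15.1 ± 0.760 CPM after DB2115 and 25.9 ± 0.593 CPM in vehicle (SD, n = 2 each), a log2 fold change of -0.78 (SE 0.09; edgeR adjusted p = 4.7e-06). TRIM5, which recognises retroviral capsids, averaged 24.2 ± 0.229 CPM after DB2115 and 25.03 ± 0.213 CPM in vehicle (SD, n = 2 each) and was not called, with a log2 fold change of -0.05 (SE 0.08).

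LGALS3BP, which encodes a secreted glycoprotein that binds galectins, rose. It had 51.1 and 48.4 CPM in DB2115 libraries (4098 counts in all), against 0.541 and 0.266 CPM in vehicle libraries (30 counts in all). The vehicle libraries held 19 and 11 reads, and the fold change was the largest of the 37 genes. The means were 49.7 ± 1.89 CPM after DB2115 and 0.403 ± 0.194 CPM in vehicle (SD, n = 2 each), a log2 fold change of 6.97 (SE 0.16; edgeR adjusted p = 5.51e-12), or 126-fold. The 95% interval of the ratio of summed counts was 88.7 to 188, which covers counting error only. The gene lies at chr17:78971238-78980109 on the minus strand (GRCh38, GENCODE 29).

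IFI6, which stabilises mitochondria against cell death, rose to 5.53 ± 1.16 CPM after DB2115, against 1.13 ± 0.333 CPM in vehicle, a log2 fold change of 2.30. BST2, the tetherin that holds budding virus at the cell surface, averaged 95.8 ± 10.3 CPM after DB2115 and 66.0 ± 5.52 CPM in vehicle, and rose by 0.54 on the log2 scale. IFI35 averaged 19.6 ± 0.333 CPM after DB2115 and 13.9 ± 1.15 CPM in vehicle (all SD, n = 2 each), and rose by 0.49. XAF1, known as an antagonist of the apoptosis inhibitor XIAP, averaged 19.1 ± 2.90 CPM after DB2115 and 22.2 ± 3.14 CPM in vehicle (SD, n = 2 each), a log2 fold change of -0.22 with overlapping libraries (edgeR adjusted p = 0.126). It was called lower without DB2115 replicate A (log2 fold change -0.40) and without vehicle replicate A (-0.37), and 38.3% of its exon bases lie opposite an antisense gene.

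The 5 genes below the filter had too few reads for a test. EPSTI1 had 9 and 7 counts in DB2115 libraries and 0 in both vehicle libraries, and was at least 4.95-fold higher when 3 counts over the group stand in for the vehicle 0. With counting error in the DB2115 reads as well, the lower 95% limit of the EPSTI1 ratio was 3.58. IFI27 had 8 and 9 counts in DB2115 libraries, against 3 and 1 in vehicle libraries, a 3.94-fold ratio whose 95% interval, for counting error, ran between 1.29 and 16.1. IFI44 had 0 and 3 counts in DB2115 libraries, against 13 and 2 in vehicle libraries, and the interval of 0.0344 to 0.656 covers counting error only while the libraries overlapped. GBP1 had 0 and 1 counts in each group, and IFI44L had none in any library.

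The order of abundance among the genes also differed between treatments. Per kilobase of exon, IFITM2 had the highest mean level in DB2115 libraries, 94.9 CPM per kilobase, and 39.4 in vehicle libraries, where BST2 was first with 59.0. LGALS3BP ranked 6 of 37 after DB2115, at 13.9 CPM per kilobase, and 33 in vehicle, at 0.113. IFITM1 ranked 3 after DB2115, at 28.4 CPM per kilobase, and 18 in vehicle, at 1.75. STAT2 ranked 7 in both groups, with 13.2 CPM per kilobase after DB2115 and 5.84 in vehicle. Neighbours in this order could be close: in DB2115 libraries ISG15, LGALS3BP and STAT2 stood at 14.2, 13.9 and 13.2 CPM per kilobase.

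Many of the genes are neighbours on the chromosomes. Of the 42, 29 lay within 200 kb of another, in 12 clusters, and no cluster held both a gene that rose and a gene that fell. In 5 of the clusters a called gene lay beside one that was not called, such as IFIT1 and IFIT5, RSAD2 and CMPK2, or SAMD9L and SAMD9. Neighbours share their region and, in families, their sequence, so they are not independent of each other.

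The rest of the interferon pathway was followed through 89 other genes, listed from general knowledge. Those named below, other than the 3 with the smallest adjusted p in each direction and IRF9, were picked after their values were seen. Of the 62 that were tested, 44 rose, 9 fell and 9 did not pass, with a median log2 fold change of 0.61, beside 32.7% higher and 31.3% lower over all tested genes. A rise of 2-fold or more was found in 16 of the 62, or 25.8%, beside 17.5% of all tested genes. Of the 62, TLR7, TLR8, TLR9 and AIM2 passed the filter on low counts only through the DB2115 libraries. Among the other 58, 42 rose and 9 fell, with a median log2 fold change of 0.55, beside 28.96% higher and 35.8% lower over all genes that passed in the vehicle libraries. No interferon gene reached the filter: 18 of the 21 ligand genes had no count in any of the 4 libraries. The remaining counts were IFNA21 with 2 counts and IFNW1 with 1 count, both after DB2115, and IFNA1 with 2 counts in vehicle. A count of 0 allows a level of up to 0.0724 to 0.0854 CPM in a library, which is 3 counts.

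All 5 tested receptor genes rose, beside 32.7% of all tested genes called higher. IFNGR1, a chain of the interferon gamma receptor, had 144 and 131 CPM in DB2115 libraries, against 57.0 and 52.6 CPM in vehicle libraries, a log2 fold change of 1.33. IFNAR1 and IFNAR2, the chains of the type I receptor, had log2 fold changes of 0.21 and 0.52. IFNAR2 shares 44.2% of its annotated exon bases with another gene on the same strand, and IL10RB, also among the 5, shares 38.1%. The values of both are therefore uncertain. The kinases JAK1, TYK2 and JAK2 rose by 1.03, 0.41 and 0.22 on the log2 scale.

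IRF9, the DNA-binding subunit of ISGF3, had 3.05 and 2.85 CPM in DB2115 libraries, against 1.22 and 1.94 CPM in vehicle libraries. IRF9 shares 48.4% of its annotated exon bases with another gene on the same strand, so its values are uncertain. The groups did not overlap, and IRF9 rose by 0.89 on the log2 scale (SE 0.26; edgeR adjusted p = 0.00923), a call that was lost without vehicle replicate A (log2 fold change 0.60, adjusted p = 0.0749).

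Among the regulatory factors IRF1, IRF2, IRF3 and IRF5 rose, IRF7 was not called, and IRF8, a myeloid factor that binds DNA with PU.1, fell. IRF8 had 276 and 263 CPM in DB2115 libraries, against 752 and 757 CPM in vehicle libraries, well apart. Its log2 fold change was -1.49 (SE 0.06; edgeR adjusted p = 4.38e-10). SPI1, the gene of PU.1, had 210 and 171 CPM in DB2115 libraries, against 187 and 177 CPM in vehicle libraries, which overlapped, and was not called.

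Of the negative regulators 4 of 5 rose, beside 32.7% of all tested genes called higher. SOCS1 and SOCS3, inhibitors of cytokine receptor kinases, averaged 19.2 and 14.5 CPM after DB2115, against 3.93 and 4.06 CPM in vehicle, with log2 fold changes of 2.29 and 1.84. PTPN6 and PIAS1 rose by less, 0.84 and 0.18.

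Of 12 tested genes of nucleic acid sensing 8 rose and 2 fell, and of the 8 that passed the filter in the vehicle libraries 6 rose and 2 fell. Over all genes that passed in the vehicle libraries 28.96% were called higher and 35.8% lower. IFI16, a DNA-binding sensor, had 93.9 and 89.1 CPM in DB2115 libraries, against 8.85 and 7.36 CPM in vehicle libraries, a log2 fold change of 3.503 (SE 0.09; edgeR adjusted p = 1.03e-11). IKBKE, a kinase that acts on IRF3 and IRF7, had 113 and 106 CPM in DB2115 libraries, against 34.4 and 34.3 CPM in vehicle libraries, a log2 fold change of 1.67 (SE 0.07; edgeR adjusted p = 3.47e-10). STING1, the adaptor of the DNA sensor cGAS, fell. It had 108 and 107 CPM in DB2115 libraries, against 172.5 and 166.8 CPM in vehicle libraries, a log2 fold change of -0.66 (SE 0.06; edgeR adjusted p = 5.52e-07).

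Of 29 other tested induced genes 19 rose and 5 fell, beside 32.7% higher and 31.3% lower over all tested genes. SLFN5, of the schlafen family, had 27.8 and 30.6 CPM in DB2115 libraries, against 1.71 and 1.21 CPM in vehicle libraries, a log2 fold change of 4.34 (SE 0.14; edgeR adjusted p = 6.76e-11). PNPT1, a mitochondrial RNA-degrading enzyme, fell to 28.9 and 26.1 CPM in DB2115 libraries, against 121.9 and 119.8 CPM in vehicle libraries, a log2 fold change of -2.13 (SE 0.07; edgeR adjusted p = 6.82e-11). The class I antigen presentation genes HLA-B, HLA-C, HLA-E, TAP1 and B2M rose by 0.21 to 0.87 on the log2 scale. PSMB9 of the same list rose by 1.32, while PSMB8 was not called (log2 fold change 0.06, edgeR adjusted p = 0.451). The DNA sensor AIM2 had 142 counts after DB2115 and none in vehicle, at least 43.9-fold higher, and the chemokine CXCL10 had none after DB2115 and 43 counts in vehicle, at least 15.4-fold lower (floor of 3 counts over the group). With counting error on both sides, the lower 95% limit of the AIM2 ratio was 35.3 and the upper limit of the CXCL10 ratio 0.0831.

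**Figure D5:**
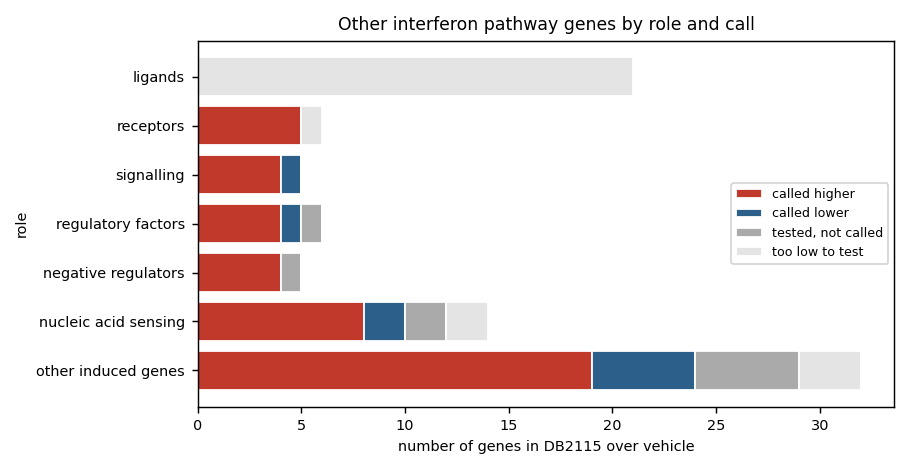
Number of genes (x axis) of the 89 other interferon pathway genes by role (y axis) that were called higher, called lower, tested without a call or too low to test in DB2115 over vehicle. The 21 ligand genes were too low to test, and all 5 tested receptor genes were called higher.

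The libraries held 40067286 and 39647758 counts in the DB2115 group and 36547900 and 42446253 in the vehicle group. Markers of the myeloid line, 8 genes including CD33, FLT3 and LYZ, summed to 1280 and 1172 CPM in DB2115 libraries, against 1311 and 1258 CPM in vehicle libraries. The similar sums hide members that moved in both directions: 5 of the 8 rose, 2 fell and SPI1 was not called. Over all tested genes 32.7% were called higher and 31.3% lower. MPO, ANPEP and KIT rose, with log2 fold changes of 2.46, 4.32 and 4.33, and FLT3 and LYZ fell, with -1.63 and -1.25. ANPEP and KIT passed the filter on low counts only through the DB2115 libraries, so the filter favoured a rise in them. Genes that mark other cell types moved with the treatment too. Of 4 B-cell markers 3 rose, and their sum was 16.8 and 18.0 CPM in DB2115 libraries, against 1.54 and 1.86 CPM in vehicle libraries, with MS4A1 at 0 to 1 count per library. Of those that rose, CD79B passed the filter only through the DB2115 libraries. The 4 epithelial markers summed to 66.9 and 64.6 CPM in DB2115 libraries, against 3.73 and 2.44 CPM in vehicle libraries, nearly all of it KRT8, while EPCAM had 2 to 8 counts. The 3 fibroblast collagens summed to 38.7 and 51.9 CPM in DB2115 libraries, against 12.7 and 5.47 CPM in vehicle libraries, most of it COL1A1, which rose, while COL1A2 and COL3A1 overlapped between the groups and were not called. Their part in the interferon-stimulated genes' values was not tested. The sums of 4 T-cell, 4 erythroid and 2 plasmacytoid dendritic cell markers were at most 1.37 CPM in any library, with CLEC4C at 0. Of these, CD3E was called higher, with 46 and 10 counts in DB2115 libraries, against 1 and 0 in vehicle libraries, and so was LILRA4, with 12 and 16 counts, against 1 and 4 in vehicle libraries. CD3E and LILRA4 both passed the filter only through the DB2115 libraries, so the filter favoured a rise in them.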

How the data were processed

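RNA of MOLM-13 cells in 5 µM DB2115 or vehicle for 20 h was sequenced. The deposited table holds raw counts of reads for each gene, to which the authors applied no scaling. FastQC, STAR, DESeq2 and hg38 are named, per the submitters' processing notes. The annotation, the counting tool and whether strand was used were not given, so values of overlapping or antisense genes are uncertain. Column V of each group equalled the sum of the other 2 in 86.3% (DB2115) and 85.6% (vehicle) of genes with counts. It was treated as pooled and left out of the fit, which left 4 libraries.

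Identifiers received symbols from a gene name table (57754) or GENCODE 29 (507). Counts were tested with edgeR 4.0.16 in R 4.3.3 (quasi-likelihood, TMM factors, filterByExpr with a minimum count of 10) and p-values adjusted over all 17219 tested genes by Benjamini-Hochberg. The common biological coefficient of variation was 6.33%. The fit was tested on simulated data. CPM use TMM-scaled totals, levels per kilobase use GENCODE 29 exon lengths, and 3 counts correspond to 0.0724 to 0.0854 CPM. Intervals and floors cover counting error only.

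The genes and lists were chosen with earlier results of these data known. Every tested member is given with its level and fold change. Full statistics go to the 6 called higher and up to 6 called lower with the largest change and a mean of at least 1 CPM, to STAT2, ISG15 and RIGI, and, among pathway genes, to the 3 smallest adjusted p in each direction and to IRF9. A few genes of these lists are not reported here by name. The alternatives were other scaling factors, other filters, DESeq2 1.42.0, a replicate block, each library left out, and all 6 columns.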

Additional observations from a re-analysis of the deposited data

How the results depend on the processing

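With 2 libraries per group, each alternative rests on 3 to 6 columns. Across 12 alternatives the number of interferon-stimulated genes called higher was 19 to 27 (25 as reported). The 19 came with a filter of 1 CPM in 3 libraries, which tested 30 of the genes and gave a median log2 fold change of 0.67 instead of 1.27, and 5 pathway genes lower instead of 9. That filter left OAS1, OAS2, OASL, IFIT1, IFIT2, IFIT3 and LGALS3BP untested. Before TMM scaling each of them was under 1 CPM in both vehicle libraries, and each was called higher as reported. With all 6 columns, where the pooled columns repeat reads and make p-values too small, 7 were called lower instead of 4. Leaving out each library in turn gave 23 to 25 called higher, 3 to 6 lower and a median of 1.10 to 1.16, and 36 to 40 pathway genes higher and 6 to 8 lower; each such fit takes the spread from the group that still has 2 libraries. Beyond the genes left untested, the cause of these changes was not tested.

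The sign changed for 3 genes that were not called. Leaving out each library moved RIGI between -0.355 and 0.0815 (lowest without DB2115 replicate A, highest without B) and DDX60L between -0.00718 and 0.105 (lowest without vehicle replicate A, highest without B). TRIM5 was at 0.05 with upper-quartile factors, 0.05 with total counts alone and 0.0353 with the 1 CPM filter. Upper-quartile factors and total counts moved the median of all genes to 0.12, against 0.03. CMPK2 was called higher with both, with the 1 CPM filter and with all 6 columns. Of 533 gene values under the alternatives, 497 kept their direction and side of the threshold.

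The columns carry letters and the labels do not tie a letter across groups. A replicate block on the letter gave 25 higher and 5 lower, with XAF1 added (-0.22, edgeR adjusted p = 0.048). The differences A minus B correlated at 0.14 between the groups over 9337 genes with at least 10 CPM, with only 2 pairs. Depth limits the 5 untested genes and the vehicle levels of IFIT1, OASL and LGALS3BP.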
